A study of Mus musculus with 9 samples.

Results

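The mitochondrial ribosomal protein genes are the nuclear genes whose symbols begin with Mrps (small subunit) or Mrpl (large subunit). They were taken by symbol from the gene rows of the expression tables, and 78 of 55488 rows matched, 29 Mrps and 49 Mrpl genes. Another 6 rows with pseudogene symbols (-ps) were left out of the members. The mitochondrial ribosome translates the few mRNAs encoded by mitochondrial DNA, whose products are core subunits of the respiratory chain and ATP synthase. Its RNAs come from the mitochondrial genome, whereas all of its proteins are encoded in the nucleus, made in the cytosol and imported. Some of them have bacterial counterparts and others occur only in mitochondria. The symbols are not a perfect guide to place: the proteins of Mrps18a and Mrps30 sit in the large subunit of the mammalian ribosome, and that of Mrps36 is now regarded as a component of the alpha-ketoglutarate dehydrogenase complex.

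RNA was sequenced from 9 libraries, 3 in each of 3 groups, each made from 100 sorted cells of C57BL/6 mouse fetal liver at embryonic day 14.5. Evi1 HSC cells came from Tie2-Cre::ROSA-Evi1 embryos and were sorted as Lin-c-Kit+Sca-1+CD150+CD48-GFP+. Evi1 is a zinc finger transcription factor, and Tie2-Cre switches the ROSA allele on in endothelial cells and the blood cells that arise from them. WT HSC cells passed the same haematopoietic stem cell gate without GFP, and WT KL cells, a gate of committed progenitors, were c-Kit+Sca-1-Lin-. Both WT groups carried the ROSA-Evi1 allele without Cre, so the allele was shared by all 3 groups. Nothing in the labels says that libraries of a group came from separate embryos, so p-values cover the spread between these libraries alone. Values are TPM, a length-scaled share of the RNA of a library, and the read depth behind them is unknown.

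In 2 libraries the identity genes went against the label. The library labelled WT HSC replicate 3 had Mecom, the gene of Evi1, at 0.0167 TPM, Hlf, a stem cell transcription factor, at 0.631 TPM and Mpo, a granule enzyme of myeloid progenitors, at 579 TPM. By contrast, that labelled WT KL replicate 1 had Mecom at 90.8, Hlf at 164 and Mpo at 13.6 TPM. A summed list of 12 haematopoietic stem cell markers was 848 to 986 TPM in the 3 Evi1 HSC libraries, WT HSC libraries 1 and 2 and the library labelled WT KL replicate 1, and 28.96 to 35.5 TPM in the other 3. Egfp stood at 23.4 to 27.3 TPM in Evi1 HSC and at 0.380 TPM or less in the WT libraries. Each comparison was therefore made over the 9 libraries as labelled and over the 7 libraries without these 2, and no library was moved to another group.

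Stretches upstream of the start sites are shown for 4 members called in every fit that left out 1 library and for the 2 members that went the opposite way. They are RefSeq sequence of build GRCm38.p6, written 5′ to 3′ on the strand of the gene, each 120 bases long and free of annotated exons. Capitals mark letters of 4 motifs searched on both strands: GCGCA and GCGC with any 1 base between them, bound by NRF1, a regulator of nuclear genes for mitochondria, CCGGAAG, bound by ETS factors, AAGATGGCG, bound by YY1, and CACGTG, the E-box bound by Myc and Usf proteins. The ETS and YY1 motifs can overlap.
Mrps22 (chr9:98601680-98601799, minus strand): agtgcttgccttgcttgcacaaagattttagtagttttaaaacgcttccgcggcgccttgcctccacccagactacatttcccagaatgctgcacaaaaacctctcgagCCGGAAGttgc
Mrpl9 (chr3:94443198-94443317, plus strand): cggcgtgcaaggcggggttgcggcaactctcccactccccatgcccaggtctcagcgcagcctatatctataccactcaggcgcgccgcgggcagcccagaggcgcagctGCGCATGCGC
Mrpl20 (chr4:155802758-155802877, plus strand): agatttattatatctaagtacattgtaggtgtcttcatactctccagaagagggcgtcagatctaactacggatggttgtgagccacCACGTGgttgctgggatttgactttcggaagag
Mrpl42 (chr10:95501950-95502069, minus strand): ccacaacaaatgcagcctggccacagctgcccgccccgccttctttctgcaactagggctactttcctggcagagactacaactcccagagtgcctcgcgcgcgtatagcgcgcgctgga
Mrps25 (chr6:92184034-92184153, minus strand): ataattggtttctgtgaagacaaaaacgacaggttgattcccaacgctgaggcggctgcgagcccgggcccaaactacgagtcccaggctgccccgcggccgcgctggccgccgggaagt
Mrpl24 (chr3:87919386-87919505, plus strand): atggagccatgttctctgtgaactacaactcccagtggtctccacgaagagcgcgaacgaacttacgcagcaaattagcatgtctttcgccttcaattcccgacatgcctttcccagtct
The capitals fall on an ETS motif upstream of Mrps22, an NRF1 motif upstream of Mrpl9, which reads as a match on either strand, and an E-box upstream of Mrpl20. The stretches of Mrpl42, Mrps25 and Mrpl24 hold none of these letters. Mrpl2, Mrpl55 and Mrps36 were also called in every such fit, and their stretches, not shown, hold none either. A match is a description of the letters and not evidence of binding.

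RefSeq windows from 250 bases before to 50 bases after the start were found for 69 of the 78 members, 75 windows in all. The NRF1 motif lay in 17.3% of the members' windows, against 10.003% of the 12526 windows of tested genes and 4.60% of all 32851 windows. The ETS motif lay in 34.7% of the members' windows, against 17.7% and 8.86%. For YY1 the shares were 10.7%, 3.05% and 1.40%, and for the E-box 9.33%, 10.1% and 7.15%. Mrpl2 has 3 overlapping windows that hold the same E-box, which lies outside its stretch. The window of Mrpl42 holds a YY1 motif after the start, likewise outside its stretch. That of Mrpl18, also called in every fit that left out 1 library, holds an ETS motif. Counted per gene, the E-box share was 7.25% of the members and 11.8% of tested genes. For NRF1 these shares were 18.8% and 11.7%, for ETS 37.7% and 20.5%, and for YY1 11.6% and 3.68%. Windows with the ETS motif made up 40.7% of small subunit and 31.2% of large subunit windows, and those with the NRF1 motif 11.1% and 20.8%.

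The members are spread over 17 chromosomes. In the GENCODE annotation of GRCm38, 17 of 78 (21.8%) have another protein-coding gene that starts within 500 bases upstream on the opposite strand, against 1171 of 11707 tested protein-coding genes (10.003%). These neighbours include Sars2, the mitochondrial seryl-tRNA synthetase, beside Mrps12, and Fau, which encodes a cytosolic small subunit ribosomal protein, beside Mrpl49. Exonic bases are shared with another gene in 33 members, and in 10 of them the shared part is at least 20% of the exonic length. The sources used here do not say whether counting used strand, so reads of such genes cannot be told apart from those of the overlapping gene.

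All 78 members passed the filter of at least 1 TPM in at least 3 of the 9 libraries, and none stood below 1 TPM in any library. Mean levels over the 9 libraries ran from 2.83 TPM for Mrpl53 to 80.0 TPM for Mrpl42, with a median of 22.3 TPM. The means of 61 members lay between 10 and 50 TPM, 11 were lower and 6 were higher, all 6 of them large subunit genes. The subunits were close on this scale, with a median mean of 23.5 TPM for Mrps and 20.6 TPM for Mrpl genes.

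The most abundant small subunit genes were Mrps17, which encodes an rRNA-binding protein of bacterial descent, with a mean of 44.4 TPM, Mrps18c with 37.3, Mrps28 with 34.3 and Mrps25 with 33.3 TPM. The lowest were Mrps14 with 9.63, Mrps31 with 6.45, Mrps26 with 6.36 and Mrps35 with 4.95 TPM. In the large subunit the highest were Mrpl42, Mrpl12 with 67.9, Mrpl30 with 56.3 and Mrpl28 with 55.4 TPM, and the lowest were Mrpl32 with 8.56, Mrpl16 with 8.42, Mrpl48 with 4.62 and Mrpl53. Mrpl12 encodes the protein of the flexible stalk that recruits translation factors. Of the 790 exonic bases of Mrpl53, 88.0% are shared with other genes, so its level is uncertain.

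Summed over all members, the level was 1457, 1480 and 1421 TPM in the Evi1 HSC libraries and 1543 and 1431 TPM in WT HSC libraries 1 and 2. It was 2695 and 2520 TPM in WT KL libraries 2 and 3. In the library labelled WT HSC replicate 3 the sum was 2550 TPM, and in that labelled WT KL replicate 1 it was 1648 TPM. The 3 libraries low in stem cell markers were thus above the other 6, without overlap. As labelled, the means were 1453 ± 29.5 TPM in Evi1 HSC, 1841 ± 616 in WT HSC and 2288 ± 561 in WT KL (SD, n = 3 each), and the WT groups overlapped. Without the 2 libraries the means were 1487 ± 79.2 TPM in WT HSC and 2608 ± 124 in WT KL (SD, n = 2 each), so that the WT KL sum was 1.75 times that of WT HSC and 1.80 times that of Evi1 HSC.

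Both subunits took part to a similar degree. Without the 2 libraries, the WT KL sum was 1.72 times that of WT HSC for small subunit genes and 1.77 times for large subunit genes. Against Evi1 HSC the ratios were 1.75 and 1.82. The ratio of the small to the large subunit sum stayed between 0.456 and 0.561 in all 9 libraries, with both ends of that range in Evi1 HSC libraries (replicates 2 and 1).

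**Figure D1:**
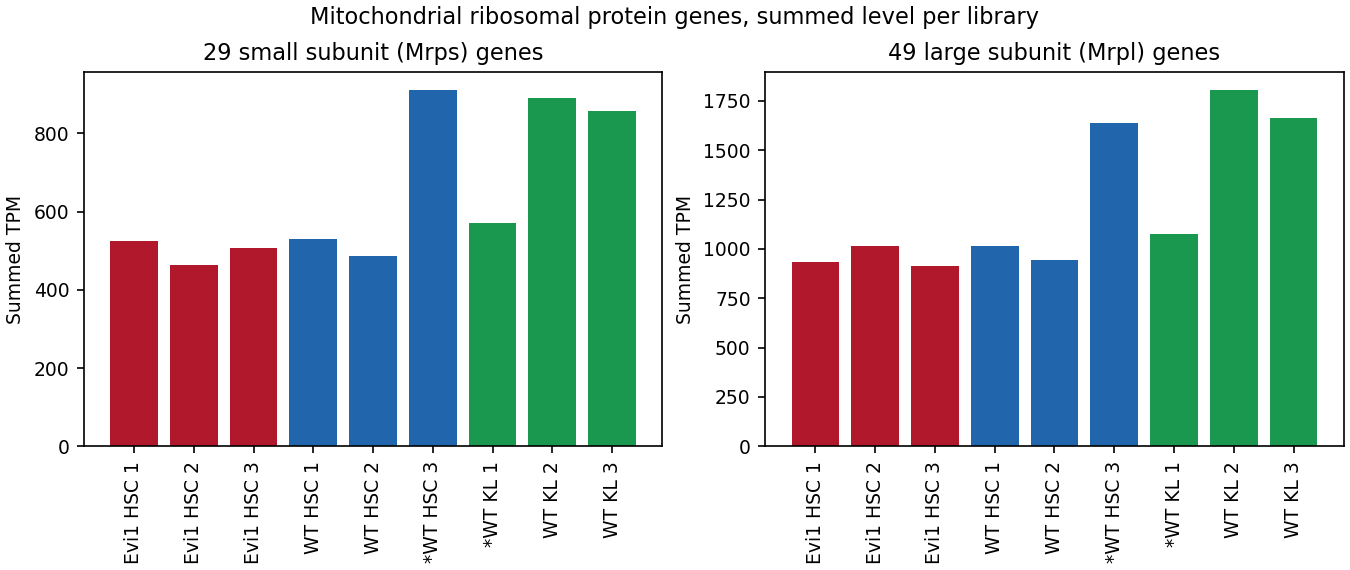
Summed TPM of the 29 Mrps genes (left) and the 49 Mrpl genes (right), 1 bar per library, coloured by labelled group; asterisks mark the 2 libraries whose identity genes went against their labels. WT KL libraries 2 and 3 and the library labelled WT HSC replicate 3 stand at 857 to 911 TPM (small) and 1639 to 1805 TPM (large), above the other 6 libraries.

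Several other measures moved with these sums. WT KL libraries 2 and 3 and the library labelled WT HSC replicate 3 had 15422 to 15819 genes at 1 TPM or more, against 18258 to 18806 in the other 6. The sum of the transcripts encoded by mitochondrial DNA was 104744 to 113896 TPM in those 3 and 67849 to 85317 TPM in the other 6. A list of 12 S, G2 and M phase genes, each found by its symbol, summed to 1337 to 1430 TPM against 680 to 895 TPM. Top2a, Cdk1 and Aurkb of that list overlapped, with Cdk1 at 32.5 to 33.9 against 21.6 to 41.3 TPM. A list of 10 granulocyte and monocyte genes summed to 647 to 2122 TPM against 152 to 225 TPM, with Ctsg, S100a8 and S100a9 listed at 0 in all of the other 6. Not all of its genes ran this way: Lyz2 was at 27.0 to 39.4 TPM in the 3 and 93.0 to 149.9 TPM in the other 6, and Csf3r at 5.16 to 13.7 against 21.9 to 39.2 TPM. Of the erythroid list, Gata1 and Klf1, both transcription factors, stood at 100.1 to 118 and 147 to 155 TPM in the 3, against 2.79 to 18.2 and 0.110 to 23.1 TPM, and Tfrc, the transferrin receptor, at 302 to 375 against 18.9 to 76.7 TPM. The sum of that list, with its globins, overlapped, at 1421 to 1793 against 1074 to 5841 TPM. A list of 8 endothelial genes was lower in the 3, with 4.28 to 6.56 against 150.2 to 267 TPM. The part of these differences in the members' levels was not tested. In bulk samples, fewer cells of a type and less RNA per cell cannot be told apart.

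Gene by gene, both WT KL libraries 2 and 3 lay above all 5 of the Evi1 HSC libraries and WT HSC libraries 1 and 2 in 54 of 78 members (69.2%), against 19.7% of the 19461 tested genes. Both lay below all 5 in 2 members, Mrps25 and Mrpl24, against 39.4% of tested genes. The library labelled WT HSC replicate 3 was above the same 5 libraries in 60 members, against 23.3% of tested genes. That labelled WT KL replicate 1 was below both other WT KL libraries in 66 members, against 30.9%. As labelled, all 3 WT KL libraries exceeded all 3 WT HSC libraries in 2 members (2.56%), Mrpl27 and Mrps35, close to the 1.94% of tested genes.

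**Figure D2:**
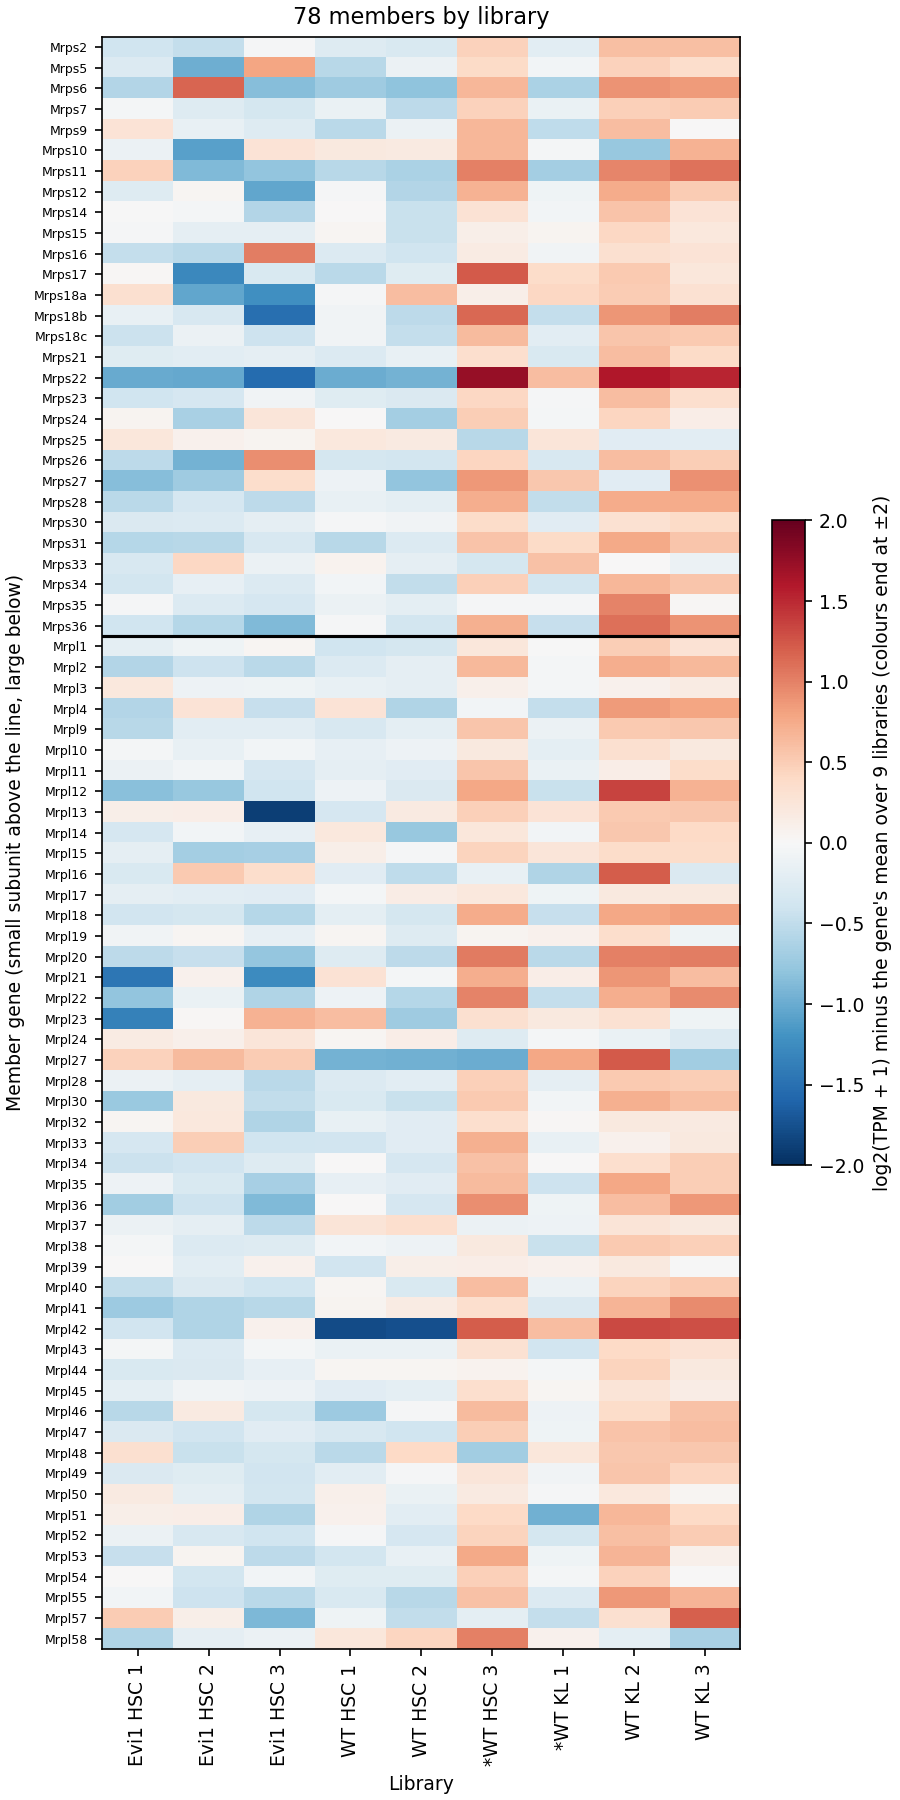
Each row is a member and each column a library; colour gives log2(TPM + 1) minus the mean of the gene over the 9 libraries, with small subunit genes above the line, large below it, and asterisks on the 2 libraries whose identity genes went against their labels. Most rows are above their mean in WT KL libraries 2 and 3 and in the library labelled WT HSC replicate 3; Mrps25 and Mrpl24 run the other way, and Mrps22 and Mrpl42 have the widest range.

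The members' spread over the 9 libraries was close to that of other genes. The median SD of log2(TPM + 1) was 0.45 over the members and 0.46 over all tested genes. It was highest in Mrps22 with 1.35, Mrpl42 with 1.23 and Mrpl27 with 0.88. In 19 members the highest library was under 2 times the lowest, and in 15 it was at least 4 times the lowest. Within the 3 Evi1 HSC libraries the highest was at least 2 times the lowest in 15 members, 11 of them small subunit genes, against 25.0% of tested genes. The widest ratios were 4.71 in Mrps26, with 3.73, 2.53 and 11.9 TPM, and 4.56 in Mrps6, with 7.57, 28.0 and 6.14 TPM. These 2 members were chosen after their values were seen.

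With the libraries as labelled, no member passed the test in any of the 3 comparisons. The test was limma on log2(TPM + 1) over all 19461 tested genes, with Benjamini-Hochberg adjustment and a call at an adjusted p under 0.05. The background was as sparse, with 0.00514% of tested genes called higher and 0.0% lower in Evi1 HSC against WT HSC and the same shares in WT HSC against WT KL. Against WT KL, 0.0103% of tested genes were higher and 0.0% lower in Evi1 HSC. At an unadjusted p under 0.05 there were 6 of the 78 members and 907 of the 19461 tested genes in the first of these comparisons. There were 3 members and 282 genes in the next, and 16 and 2956 in the last. The smallest p among members belonged to Mrpl27, Mrpl15 and Mrpl58 in the first comparison, to Mrpl27, Mrpl58 and Mrpl42 in the second, and to Mrpl15, Mrps22 and Mrpl41 in the last. The median log2 fold change of the members was -0.24, -0.29 and -0.53, against 0.11, 0.06 and 0.18 over all tested genes.

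WT HSC against WT KL asks how these genes differ between the stem cell gate and committed progenitors. Over the 7 libraries, 32 members were lower in WT HSC than in WT KL, 11 Mrps and 21 Mrpl genes, and 1 was higher. That is 41.0% of the members lower, where 10.8% of all tested genes were lower and 26.7% were higher. The median log2 fold change of the members was -0.71 (-0.76 for Mrps and -0.62 for Mrpl genes), and that of all tested genes was 0.26. Only 5 members, 2 Mrps and 3 Mrpl genes, had a positive log2 fold change. The median ratio of mean TPM, WT KL over WT HSC, was 1.69.

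Leaving out 1 library at a time changed this count by over 1.5 times in 3 cases: 14 members were called when WT HSC replicate 2 was left out, and 14 and 19 when WT KL replicate 2 or 3 was. All 33 called members kept their direction in each of these fits, and 10 members were called in every one of them, here and against Evi1 HSC: Mrps22, Mrps28, Mrps36, Mrpl2, Mrpl9, Mrpl18, Mrpl20, Mrpl42, Mrpl47 and Mrpl55. After scaling by median-of-ratios size factors the median of all tested genes was 0.02 in place of 0.26, 53.5% in place of 71.2% of all called genes were higher in WT HSC, and 48 members were lower and none higher, where 19.2% of all tested genes were lower and 22.1% higher.

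Mrps22, a small subunit protein with no bacterial counterpart, had the widest range of all members. Its gene spans chromosome 9 from 98588730 to 98601660, minus strand. It stood at 4.16, 4.13 and 2.58 TPM in Evi1 HSC, at 4.23 and 4.41 TPM in WT HSC libraries 1 and 2, and at 30.5 and 28.98 TPM in WT KL libraries 2 and 3. The library labelled WT HSC replicate 3 was as high as these WT KL libraries, with 33.7 TPM, and that labelled WT KL replicate 1 lay between the groups at 14.9 TPM. The mean of WT KL was 6.89 times that of WT HSC, a log2 fold change of -2.53 (SE 0.23, limma adjusted p = 0.000389). Against Evi1 HSC it was 8.22 times, a log2 fold change of -2.75 (SE 0.21, limma adjusted p = 0.000121).

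Other small subunit genes followed with smaller differences. Mrps28, the counterpart of bacterial ribosomal protein S1, stood at 21.4, 24.9 and 21.9 TPM in Evi1 HSC, 28.7 and 27.8 in WT HSC libraries 1 and 2 and 54.0 and 54.1 in WT KL libraries 2 and 3. It was at 53.1 and 22.4 TPM in the pair labelled WT HSC replicate 3 and WT KL replicate 1. Its log2 fold change was -0.91 in WT HSC (SE 0.13, limma adjusted p = 0.00264) and -1.22 in Evi1 HSC (SE 0.12, limma adjusted p = 0.000385) against WT KL. The Evi1 HSC libraries were all below WT HSC libraries 1 and 2, and these were all below WT KL libraries 2 and 3.

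Mrps36 stood at 19.4, 17.0 and 13.5 TPM in Evi1 HSC, 25.3 and 19.7 in WT HSC libraries 1 and 2 and 56.2 and 48.98 in WT KL libraries 2 and 3. The libraries labelled WT HSC replicate 3 and WT KL replicate 1 held 42.9 and 18.4 TPM. The log2 fold change was -1.20 in WT HSC (SE 0.21, limma adjusted p = 0.00541) and -1.61 in Evi1 HSC (SE 0.19, limma adjusted p = 0.000793). Reads of near-identical copies cannot be told apart from its own: the rows Mrps36-ps1 and Mrps36-ps2 were likewise highest in WT KL libraries 2 and 3, at 13.6 and 14.3 TPM and at 17.0 and 18.0 TPM. In Evi1 HSC and WT HSC libraries 1 and 2 they stood at 4.41 to 10.3 TPM and 6.35 to 11.8 TPM.

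Mrps11, a protein of the small subunit platform, was at 9.73 and 9.17 TPM in WT HSC libraries 1 and 2 and at 30.1 and 32.4 TPM in WT KL libraries 2 and 3. The Evi1 HSC libraries were uneven, with 20.8, 7.57 and 8.16 TPM, and the libraries labelled WT HSC replicate 3 and WT KL replicate 1 stood at 30.8 and 8.87 TPM. Its log2 fold change in WT HSC was -1.62 (SE 0.43, limma adjusted p = 0.0247), and the call was lost without any 1 of the 4 WT libraries, with an adjusted p of up to 0.108, and with no filter on low values (adjusted p = 0.0803). Mrps11 and Mrpl46 start head to head on chromosome 7 and share 173 exonic bases, and Mrpl46 was not called.

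In the large subunit Mrpl42, which has no bacterial counterpart, differed most. Its gene spans chromosome 10 from 95480805 to 95501940, minus strand. WT HSC libraries 1 and 2 held 16.7 and 17.2 TPM and WT KL libraries 2 and 3 held 152 and 149 TPM. Evi1 HSC lay between them, at 46.3, 39.6 and 64.2 TPM, while the libraries labelled WT HSC replicate 3 and WT KL replicate 1 stood at 141 and 93.5 TPM. None of these sets overlapped over the 7 libraries. The mean of WT KL was 8.90 times that of WT HSC, a log2 fold change of -3.08 (SE 0.22, limma adjusted p = 0.000180), and 3.01 times that of Evi1 HSC, a log2 fold change of -1.60 (SE 0.20, limma adjusted p = 0.000937).

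Mrpl20, an rRNA-binding protein of bacterial descent, lies on chromosome 4 from 155802878 to 155809975 on the plus strand. It stood at 30.0, 31.5 and 25.2 TPM in Evi1 HSC, 36.2 and 30.0 in WT HSC libraries 1 and 2 and 88.4 and 89.9 in WT KL libraries 2 and 3. The libraries labelled WT HSC replicate 3 and WT KL replicate 1 were at 90.1 and 29.7 TPM, each at the level of the other WT group. The log2 fold change was -1.41 in WT HSC (SE 0.16, limma adjusted p = 0.00101) and -1.60 in Evi1 HSC (SE 0.15, limma adjusted p = 0.000270).

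Mrpl12, the stalk protein, had 32.8, 34.8 and 44.9 TPM across the Evi1 HSC libraries, 55.5 and 48.3 in WT HSC libraries 1 and 2 and 153 and 96.9 in WT KL libraries 2 and 3. For the libraries labelled WT HSC replicate 3 and WT KL replicate 1 the values were 102 and 43.2 TPM. Its log2 fold change was -1.22 in WT HSC (SE 0.25, limma adjusted p = 0.00912) and -1.68 in Evi1 HSC (SE 0.22, limma adjusted p = 0.00127), and the first call was lost without WT HSC replicate 2 (adjusted p = 0.0554). Each library of the 3 sets lay in the order Evi1 HSC, WT HSC, WT KL, and the step between Evi1 HSC and WT HSC did not pass the test.

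Mrpl55, and Mrpl22, which lines the exit tunnel for the nascent chain, were the next named members lower in WT HSC. Mrpl55 was at 10.2 and 8.45 TPM in WT HSC libraries 1 and 2, 24.2 and 21.2 in WT KL libraries 2 and 3 and 12.4, 9.43 and 8.53 in Evi1 HSC. Mrpl22 was at 14.05 and 9.89, 25.8 and 30.2, and 8.41, 13.8 and 9.72 TPM in the same order. The libraries labelled WT HSC replicate 3 and WT KL replicate 1 held 19.9 and 10.5 TPM of Mrpl55 and 31.1 and 10.6 TPM of Mrpl22. The log2 fold change in WT HSC was -1.20 for Mrpl55 (SE 0.21, limma adjusted p = 0.00546) and -1.18 for Mrpl22 (SE 0.27, limma adjusted p = 0.0141). The call of Mrpl22 was lost without WT HSC replicate 2 or either WT KL library, with an adjusted p of up to 0.0828.

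Mrpl2, a neighbour of the peptidyl transferase centre, Mrpl9, Mrpl18 and Mrpl47 were lower in WT HSC by 0.92, 0.79, 1.07 and 0.95 on the log2 scale. The mean of WT KL was 1.74 to 2.12 times that of WT HSC in these 4. Mrpl9, which lies on chromosome 3 from 94443318 to 94451130 on the plus strand, stood at 37.4 and 40.9 TPM in WT HSC libraries 1 and 2 and at 67.7 and 68.6 TPM in WT KL libraries 2 and 3. Its Evi1 HSC values of 31.6, 40.1 and 40.4 TPM overlapped those of WT HSC.

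**Figure D3:**
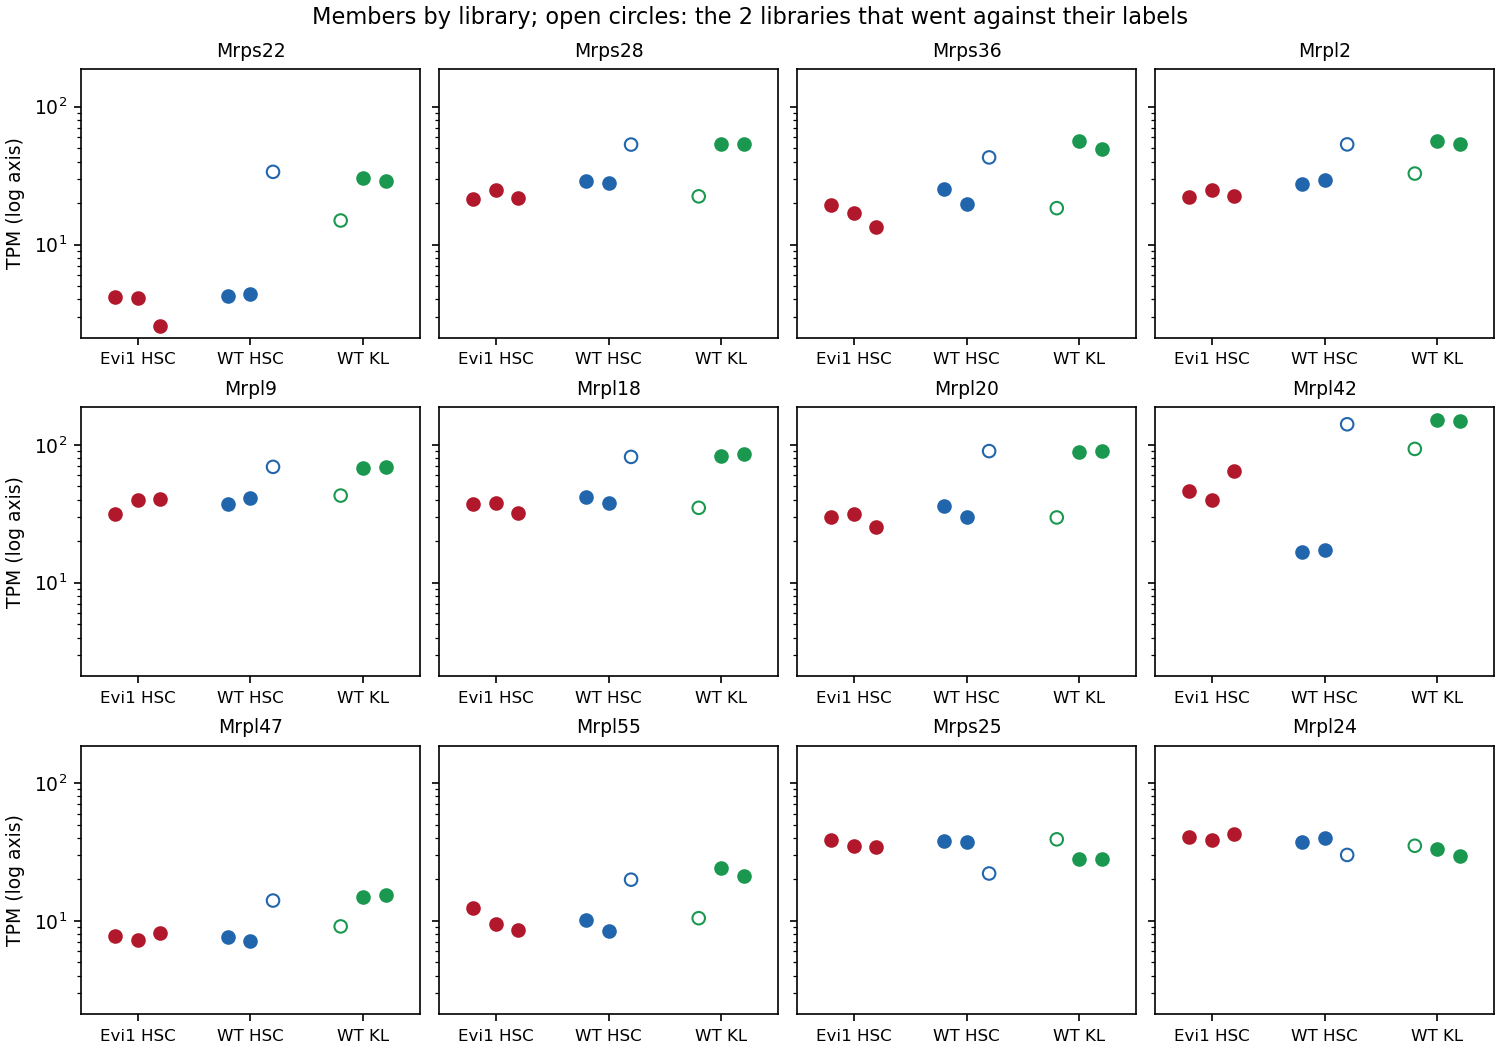
TPM on a log axis of the 10 members called in every fit that left out 1 library, in both comparisons with WT KL, and of Mrps25 and Mrpl24; each circle is a library, jittered by replicate, and open circles are the 2 libraries whose identity genes went against their labels. Filled WT KL circles lie above all filled HSC circles in the 10 members and below them in Mrps25 and Mrpl24, and in Mrpl42 the filled Evi1 HSC circles stand apart from the filled WT HSC circles, with 39.6 to 64.2 TPM against 16.7 and 17.2 TPM.

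The member called higher in WT HSC was Mrps25, a small subunit protein with no bacterial counterpart. Its gene spans chromosome 6 from 92169525 to 92184033, minus strand. WT HSC libraries 1 and 2 held 38.0 and 37.2 TPM, the Evi1 HSC libraries 38.6, 34.8 and 34.3 TPM, and WT KL libraries 2 and 3 held 27.9 and 28.1 TPM. The libraries labelled WT HSC replicate 3 and WT KL replicate 1 were at 22.1 and 39.0 TPM. The log2 fold change was 0.41 in WT HSC (SE 0.13, limma adjusted p = 0.0411) and 0.34 in Evi1 HSC (SE 0.12, limma adjusted p = 0.0469). Both calls were lost in every fit without 1 library and with the compared groups alone (adjusted p = 0.0643 and 0.0667), and with size factors the values were 0.13 and 0.06. Exons of Nr2c2, a nuclear receptor gene, cover 69.8% of its exonic length. Nr2c2 was higher too, with a log2 fold change of 1.04 in WT HSC (SE 0.28, limma adjusted p = 0.0273) and 0.83 in Evi1 HSC (SE 0.26, limma adjusted p = 0.0361). Members called lower overlap other genes as well. The shared part is 77.8% in Mrps34, 33.4% in Mrpl43, 24.2% in Mrpl47 and 23.2% in Mrps18c, all lower in both comparisons with WT KL. In Mrps18b, lower in Evi1 HSC, it is 30.5%. The genes that overlap these members were not examined.

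Evi1 HSC against WT KL shares the WT KL libraries with the comparison above. Over the 7 libraries, 40 members were lower in Evi1 HSC than in WT KL, 14 Mrps and 26 Mrpl genes, and 2 were higher. Among all tested genes 14.3% were lower and 31.3% higher. The median log2 fold change of the members was -0.73 (-0.74 for Mrps and -0.70 for Mrpl genes), against 0.28 over all tested genes. The count fell to 26 without WT KL replicate 2, and 23 of the 42 called members were called in every fit without 1 library. With size factors 56 members were lower and none higher, where 22.7% of all tested genes were lower and 25.3% higher, at an all-gene median of 0.04.

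All 32 members lower in WT HSC were among the 40, and the other 8 were Mrps12, Mrps18b, Mrps30, Mrpl4, Mrpl15, Mrpl21, Mrpl37 and Mrpl44. Whether the 2 differences themselves differ is asked by setting Evi1 HSC against WT HSC, where none of the 8 passed the test. Mrpl21, of bacterial descent, stood at 7.79, 24.3 and 8.95 TPM across the Evi1 HSC libraries, against 43.0 and 35.7 TPM in WT KL libraries 2 and 3. WT HSC libraries 1 and 2 held 28.2 and 22.2 TPM, and the libraries labelled WT HSC replicate 3 and WT KL replicate 1 held 38.4 and 25.2 TPM. Evi1 HSC replicate 2 was at the level of WT HSC. The log2 fold change against WT KL was -1.62 (SE 0.44, limma adjusted p = 0.0219), and the call was lost without Evi1 HSC replicate 1 or 3 or either WT KL library, with an adjusted p of up to 0.117, and with no filter on low values (adjusted p = 0.0774).

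Mrps18b, 1 of 3 relatives of bacterial ribosomal protein S18, stood at 24.0, 21.3 and 8.74 TPM in Evi1 HSC, 25.5 and 18.3 in WT HSC libraries 1 and 2 and 50.2 and 55.5 in WT KL libraries 2 and 3. The level was 60.3 TPM in the one labelled WT HSC replicate 3 and 19.0 TPM in the one labelled WT KL replicate 1. Its log2 fold change against WT KL was -1.61 in Evi1 HSC (SE 0.40, limma adjusted p = 0.0158), lost without either WT KL library (adjusted p of up to 0.0895) and with no filter on low values (adjusted p = 0.0605), and -1.25 in WT HSC (SE 0.44, limma adjusted p = 0.0624).

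Mrpl41, a protein of the large subunit found only in mitochondria, stood at 5.83, 6.39 and 6.65 TPM in Evi1 HSC, at 10.6 and 11.7 in WT HSC libraries 1 and 2 and at 17.1 and 20.6 in WT KL libraries 2 and 3. The libraries labelled WT HSC replicate 3 and WT KL replicate 1 held 13.2 and 8.16 TPM. The 3 sets did not overlap over the 7 libraries. Against WT KL the log2 fold change was -1.44 in Evi1 HSC (SE 0.16, limma adjusted p = 0.000531) and -0.70 in WT HSC (SE 0.17, limma adjusted p = 0.0182). The latter was lost without WT HSC replicate 1, WT HSC replicate 2 or WT KL replicate 3, with an adjusted p of up to 0.107.

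Mrpl24, a protein near the exit of the nascent chain tunnel, was higher in Evi1 HSC. Its gene spans chromosome 3 from 87919506 to 87923672, plus strand, and exons of Rrnad1 cover 26.3% of its exonic length. It stood at 40.7, 38.9 and 43.0 TPM in Evi1 HSC, 37.2 and 39.9 in WT HSC libraries 1 and 2 and 33.0 and 29.7 in WT KL libraries 2 and 3, and the 2 libraries labelled WT HSC replicate 3 and WT KL replicate 1 held 30.1 and 35.1 TPM. The log2 fold change was 0.37 (SE 0.12, limma adjusted p = 0.0388). The call was lost in every fit without 1 library and with the compared groups alone (adjusted p = 0.0531), and with size factors the value was 0.08. Rrnad1 did not pass the test, with a log2 fold change of -0.17 (SE 0.23).

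**Figure D4:**
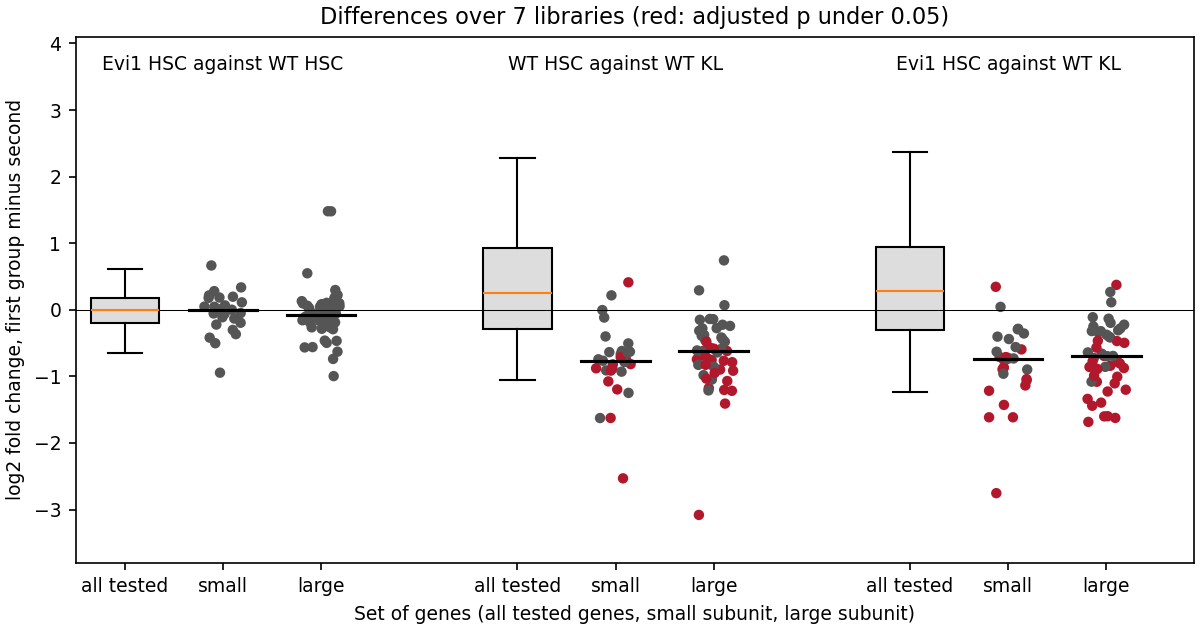
Log2 fold change over 7 libraries, first group minus second, in the 3 comparisons; points are the 29 small and 49 large subunit genes with their median as a line, red where the limma adjusted p is under 0.05, and grey boxes show the quartiles of all 19461 tested genes with whiskers from the 5th to the 95th percentile. Member medians are -0.76 and -0.62 for WT HSC against WT KL and -0.74 and -0.70 for Evi1 HSC against WT KL, and no member is red for Evi1 HSC against WT HSC.

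Evi1 HSC against WT HSC asks whether stem cells with the switched-on Evi1 allele differ from those without it. Over the 7 libraries no member passed the limma test, and 0.0565% of tested genes were higher and 0.149% lower. At an unadjusted p under 0.05 there were 9 of the 78 members and 1635 of the 19461 tested genes. The median log2 fold change of the members was -0.05 (0.00 for Mrps and -0.07 for Mrpl genes), against 0.00 over all tested genes. All 3 Evi1 HSC libraries lay above WT HSC libraries 1 and 2 in 5 members, Mrpl1, Mrpl3, Mrpl27, Mrpl42 and Mrpl45, against 11.8% of tested genes, and below them in 14 members, against 12.3%.

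The smallest p belonged to Mrpl42, Mrpl41 and Mrpl37. Mrpl42 had a log2 fold change of 1.48 (SE 0.20, limma adjusted p = 0.0591), so the mean of WT HSC was 0.339 times that of Evi1 HSC. With 93.5 TPM, the library labelled WT KL replicate 1 stood above all 5 of these libraries, and its stem cell markers were high. Mrpl41 had a log2 fold change of -0.74 (SE 0.16, limma adjusted p = 0.205). Mrpl37, found only in mitochondria, stood at 20.1, 19.2 and 15.0 TPM across the Evi1 HSC libraries, against 26.3 and 27.9 TPM in WT HSC libraries 1 and 2, a log2 fold change of -0.57 (SE 0.16, limma adjusted p = 0.388). In WT KL libraries 2 and 3 it was at 26.3 and 25.3 TPM, and in the libraries labelled WT HSC replicate 3 and WT KL replicate 1 at 20.2 and 20.4 TPM.

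Mrpl27, which lies close to the peptidyl transferase centre, and Mrpl58 had patterns of their own. Mrpl27 stood at 24.0, 26.9 and 24.7 TPM across the Evi1 HSC libraries, and those labelled WT HSC held 8.45, 8.33 and 8.13 TPM, without overlap. The 3 libraries labelled WT KL were uneven, with 29.8, 41.4 and 10.1 TPM. Over the 9 libraries the log2 fold change of Mrpl27 in Evi1 HSC against WT HSC was 1.49 (SE 0.43, limma adjusted p = 0.791). Mrpl58 encodes a peptidyl-tRNA hydrolase that releases stalled chains and is part of the large subunit. It stood at 5.53, 7.73 and 8.14 TPM in Evi1 HSC, 10.6, 12.3 and 19.0 under the WT HSC label and 9.51, 7.72 and 5.35 under the WT KL label. All 3 libraries labelled WT HSC lay above the other 6, and the log2 fold change in Evi1 HSC against WT HSC over 9 libraries was -0.86 (SE 0.29, limma adjusted p = 0.791). Mrpl15, of bacterial descent, was at 8.66, 5.82 and 5.91 TPM in Evi1 HSC, all below the other 6 libraries, which ran from 9.82 to 13.8 TPM. Its log2 fold change over 9 libraries was -0.69 against WT HSC (SE 0.22, limma adjusted p = 0.791).

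Genes that start beside a member did not all move with it. Of the 17 members with such a neighbour, 6 were lower in WT HSC than in WT KL. Of the 16 neighbours tested, 2 were lower and 1 was higher, against 10.8% lower and 26.7% higher among all tested genes. Those lower were Psma2 beside Mrpl32 and Ska3 beside Mrpl57, with log2 fold changes of -0.73 and -0.77 (limma adjusted p = 0.00436 and 0.0126). Neither Mrpl32 nor Mrpl57 was called. The neighbours' median log2 fold change was -0.33, with 11 negative, against -0.74 in the 17 members and 0.26 over all tested genes. Mrpl2 and Klc4, a kinesin light chain gene 207 bases away, went in opposite directions. Klc4 stood at 11.1 and 15.4 TPM in WT HSC libraries 1 and 2, 16.1, 11.4 and 16.7 in the Evi1 HSC libraries and 3.96 and 2.43 TPM in WT KL libraries 2 and 3. Its log2 fold change in WT HSC was 1.77 (SE 0.28, limma adjusted p = 0.00363), where that of Mrpl2 was -0.92 (SE 0.13, limma adjusted p = 0.00246). Mrpl2 itself was at 27.6 and 29.5, 22.1, 24.97 and 22.7, and 56.1 and 53.3 TPM in the same libraries. Sars2 beside Mrps12 was not called, with 7.68 and 6.09 TPM in WT HSC libraries 1 and 2 and 8.99 and 9.27 TPM in WT KL libraries 2 and 3.

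Other genes of mitochondrial translation were read in the same fits over 7 libraries, each against WT KL. The background for these counts is 10.8% of all tested genes lower and 26.7% higher in WT HSC, and 14.3% lower and 31.3% higher in Evi1 HSC. Of 5 mitochondrial ribosomal proteins without an Mrp symbol, Ptcd3 was lower in WT HSC, with 72.9 and 70.0 TPM in libraries 1 and 2 against 123 and 133 TPM in WT KL libraries 2 and 3 (log2 fold change -0.83, SE 0.12, limma adjusted p = 0.00241). In Evi1 HSC 2 of the 5 were lower, Ptcd3 and Gadd45gip1. Of 15 mitochondrial translation factors, 5 were lower and 2 higher in WT HSC, and 6 were lower and 1 higher in Evi1 HSC. The lower ones included Tufm, the elongation factor that delivers aminoacyl-tRNA, with 35.6 and 26.7 TPM in WT HSC libraries 1 and 2 and 65.5 and 64.1 TPM in WT KL libraries 2 and 3 (log2 fold change -1.05, SE 0.16, limma adjusted p = 0.00330). Guf1, a ribosome-bound GTPase related to a bacterial elongation factor, was higher in WT HSC, with 17.5 and 19.4 against 10.3 and 9.47 TPM (log2 fold change 0.84, SE 0.16, limma adjusted p = 0.00679).

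Of 23 assembly and rRNA modification factors, 6 were lower in WT HSC and 8 in Evi1 HSC, and none was higher. Noa1, a GTPase needed for small subunit assembly, stood at 11.2 and 15.9 TPM in WT HSC libraries 1 and 2 and 38.3 and 34.3 TPM in WT KL libraries 2 and 3 (log2 fold change -1.38, SE 0.23, limma adjusted p = 0.00437). Of 17 mitochondrial aminoacyl-tRNA synthetases, 5 were lower and 2 higher in WT HSC, and 6 were lower and 2 higher in Evi1 HSC. A list of 14 genes held those for transcription and upkeep of mitochondrial DNA and regulators of nuclear genes, among them Nrf1, Ppargc1a and Pprc1. Of these 14, 1 was lower and 1 higher in WT HSC, and 2 were lower and 2 higher in Evi1 HSC. Both calls in WT HSC were of such regulators, Pprc1 lower and Ppargc1a higher. Ppargc1a stood at 0.493 and 0.771 TPM in WT HSC libraries 1 and 2 and at 0 TPM in WT KL libraries 2 and 3. Tfam, which packages mitochondrial DNA, was among those lower in Evi1 HSC (log2 fold change -0.59, SE 0.16, limma adjusted p = 0.0240).

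The genes of the cytosolic ribosome, which share the word ribosome but not the organelle, were counted in the same way. Of 80 tested, 10 were lower and none higher in WT HSC, beside 10.8% lower and 26.7% higher of all tested genes. In Evi1 HSC 17 were lower and 5 higher, beside 14.3% and 31.3%. Their median log2 fold change was -0.04 and -0.03, where that of the members was -0.71 and -0.73.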

How the data were processed

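Values are the authors' deposited TPM per gene, 1 table per library, per the file headers. The submitters' processing notes list HISAT2, StringTie and mm10, and the sources used here give no versions, annotation or use of strand. The column of values for WT HSC replicate 2 carried the header C_H3, which no label explains, and was used as TPM of the sample it is assigned to. It summed to 568811, slightly below the 571074 to 637527 of the other libraries. TPM keeps no depth, so no counting interval or count model was used, and TPM falls for all genes when a few abundant ones rise. Genes with at least 1 TPM in at least 3 of 9 libraries (19461) were fitted on the log2(TPM + 1) scale using limma 3.58.1 (R 4.3.3), with a mean per group and a variance trend, and called at a Benjamini-Hochberg adjusted p under 0.05. Each log2 fold change is the first group minus the second on that scale and understates changes of low genes. Fits used 9 libraries as labelled, and 7 that omit those labelled WT HSC replicate 3 and WT KL replicate 1. Scripts were tested on simulated data. The members, gene lists and alternatives (a pseudocount of 0.1, no filter, size factors, compared groups alone, a replicate block, each library left out) were chosen with earlier results of these data known. The rule for naming took the 4 highest and 4 lowest members per subunit, up to 8 called per direction or the 3 smallest p where none was called, and the 3 largest SDs; members called in every fit without 1 library were added after seeing the values. Coordinates are from GENCODE M21 (GRCm38).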

Additional observations from a re-analysis of the deposited data

How the results depend on the processing

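With the 9 libraries as labelled, 0 members were called in every comparison under each setting tried, except that leaving out 1 library gave 0 to 1: Mrpl42 in WT HSC against WT KL without WT HSC replicate 3, and Mrpl41 in Evi1 HSC against WT KL without WT KL replicate 1. Over 7 libraries, Evi1 HSC against WT HSC gave 0 members under every setting. For WT HSC against WT KL the 33 called members became 33 with a pseudocount of 0.1, 33 without the filter, 35 with the compared groups alone and 48 with size factors, and for Evi1 HSC against WT KL the 42 became 42, 38, 40 and 56. Leaving out 1 library gave 14 to 35 and 26 to 40, where an arm left with 1 library was assumed to vary like the others. With the replicate number as a block, 19 and 36 members were called. Whether the number pairs the libraries was not settled. The deviations of same-numbered libraries correlated between -0.06 and -0.01 over 7 libraries, and between -0.64 and 0.70 over 9. Over 7 libraries the 2 deviations of a WT group mirror each other, so these values cannot show a pairing or its absence. Over 9 they include the 2 libraries whose identity genes went against their labels. For single named members, 2141 of the values under alternatives kept direction and side of the threshold, 28 newly passed it and 90 no longer did. Another 80 changed sign with no call on either side, 68 of them on leaving out 1 library, 7 with size factors and 5 with the block, at -0.47 to 0.47. The value that changed sign with a call was that of Mrpl27 in Evi1 HSC against WT KL, at -0.70 without WT KL replicate 3, and at 1.23 when replicate 2 was left out, in place of 0.27, its 2 WT KL libraries being 41.4 and 10.1 TPM. The cause of the other changes was not tested. Precision is limited by 2 or 3 libraries per group and an unknown depth.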
